A study of Mus musculus with 21 samples.

Results

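The 10 genes described here encode regulators of alternative splicing that are known from neurons, from hair cells or from both: Nova1 and Nova2, Rbfox1, Rbfox2 and Rbfox3, Mbnl1 and Mbnl2, Ptbp1 and Ptbp2, and Srrm4. They were taken from a list of gene names, and all 10 were found by Ensembl identifier among the 52550 genes of the count table. RNA was sequenced in bulk from spiral ganglion neurons (SGNs), which carry sound information from the hair cells (HCs) of the cochlea to the brainstem, at 5 ages from E15.5 to P30 (the others being P1, P8 and P14), from HCs at P12 and from glia of the cochlea at P8, with 3 libraries per group and 21 in all. Mice were of the C57BL/6 strain, and all 7 groups carried the Ai9 reporter, in which Cre removes a stop cassette before tdTomato. In SGNs the reporter was switched on by ShhCre/+, in HCs by Atoh1-CreER+ with tamoxifen at P0 and P1, and in glia by vGlut3-iCreER/+ with tamoxifen given at P2 and P3. Between 69 and 195 SGNs and between 86 and 125 glia were picked by hand per library, whereas an HC library held about 1200 cells, cochlear and vestibular together. Total counts ran from 10368240 to 37287489 per library. Nothing in the labels says whether the replicates came from separate litters, so the p-values measure the spread between these libraries only.

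Splicing regulators of this kind bind short motifs in or beside an exon and raise or lower its inclusion, depending on where they bind. NOVA proteins bind YCAY clusters and RBFOX proteins bind GCAUG, and both families shape the transcripts of synaptic and channel genes in neurons. MBNL proteins drive the change from fetal to adult splicing in several tissues. PTBP1 is a repressor found in most non-neuronal cells, and its relative PTBP2 takes its place in developing neurons. SRRM4, also called nSR100, promotes the inclusion of neuronal microexons, and in hair cells it is needed for the splicing of the transcriptional repressor REST.

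All 10 are annotated as protein-coding. In GRCm38, the annotation places Nova1 (ENSMUSG00000021047.7) at chr12:46694517-46818929 on the minus strand and Nova2 (ENSMUSG00000030411.16) at chr7:18925888-18965319 on the plus strand. The RBFOX genes are Rbfox1 (ENSMUSG00000008658.15) at chr16:5885355-7411526 on the plus strand, Rbfox2 (ENSMUSG00000033565.16) at chr15:77078990-77307004 on the minus strand and Rbfox3 (ENSMUSG00000025576.17) at chr11:118489762-118911597 on the minus strand. The MBNL genes are Mbnl1 (ENSMUSG00000027763.13) at chr3:60472830-60629750 on the plus strand and Mbnl2 (ENSMUSG00000022139.16) at chr14:120275669-120431697 on the plus strand. The rest are Ptbp1 (ENSMUSG00000006498.16) at chr10:79854427-79864771 on the plus strand, Ptbp2 (ENSMUSG00000028134.11) at chr3:119718742-119784466 on the minus strand and Srrm4 (ENSMUSG00000063919.11) at chr5:116439275-116591817 on the minus strand.

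A single exon ties Ptbp1 to Ptbp2. PTBP1 is known to repress a 34-base exon in the Ptbp2 transcript, and since 34 is not a multiple of 3, its loss shifts the reading frame. The Ptbp2 exon lies at chr3:119724612-119724645 on the minus strand of GRCm38 (exon 10 of 14 in Ptbp2-201), and its counterpart in Ptbp1 at chr10:79862014-79862047 on the plus strand (exon 9 of 13 in Ptbp1-202). Both are wholly coding. They are shown because they mark where the balance between these genes acts, with the exon in capitals and 24 bases of the adjoining exons on each side in lower case, 5′ to 3′ on the coding strand.
Ptbp2 exon 10: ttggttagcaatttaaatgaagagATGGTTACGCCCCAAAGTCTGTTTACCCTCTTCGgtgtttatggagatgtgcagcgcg
Ptbp1 exon 9: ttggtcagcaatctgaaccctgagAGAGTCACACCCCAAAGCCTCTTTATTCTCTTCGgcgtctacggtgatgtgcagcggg
The exons were identical at 26 of 34 positions (76.5%). Of the annotated transcripts that reach past this exon on both sides, the 3 protein-coding ones of Ptbp2 and the 3 of Ptbp1 hold it, and the 2 of each gene that are annotated for nonsense-mediated decay lack it. The deposited counts are summed per gene, so they do not show how often the exon was included, and a Ptbp2 level below includes transcripts of both kinds.

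Levels are given as normalised RPKM, that is counts divided by gene length and by a library size scaled with the trimmed mean of M values (TMM), because TPM was set largely by a single short gene: Gm23935, of 57 bases, took 20.05% to 68.1% of all TPM in 17 of the 21 libraries. Differences come from limma-voom on the counts. A gene was called between cell types at a fold of at least 4 with an adjusted p under 0.01, and between ages at a fold of at least 2 with an adjusted p under 0.05. The SGN marker list (4 genes) summed to between 111 and 393 in every SGN library, to 1.60 to 2.96 in HCs, and to 53.4, 5.91 and 6.46 in glia replicates 1 to 3. The glia list (3 genes) summed to 453 to 566 in glia and to 0.439 to 33.8 in SGNs, and the HC list (4 genes) to 378 to 396 in HCs and to 11.6 to 49.6 in SGNs. The labels were therefore matched by the markers, while glia replicate 1 held the most SGN marker RNA among glia. In bulk RNA, fewer cells of a type and less RNA per cell cannot be told apart.

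**Figure D1:**
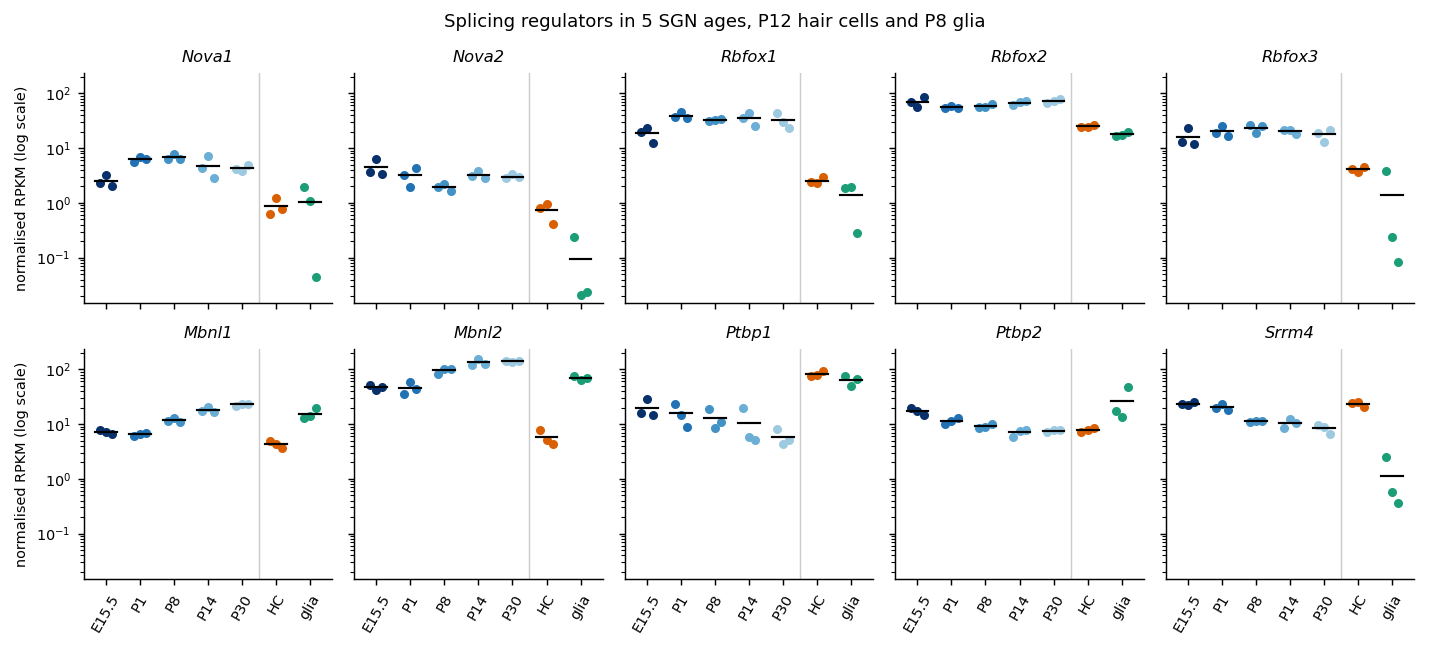
Normalised RPKM (vertical log axis) of each of the 10 splicing regulators in every library, with 3 points per group, a black line at the group mean, SGN ages in blue, P12 hair cells (HC) in orange and P8 glia in green. Rbfox1, Rbfox2, Nova1 and Nova2 sit higher in all 15 SGN libraries than in any HC or glia library, Ptbp1 shows the opposite order, and the Srrm4 libraries of HCs overlap those of E15.5 SGNs.

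5 of the 10 regulators were called higher and 1 lower in SGNs than in HCs, when the 5 ages were weighted equally. Nova1, Nova2, Rbfox1, Rbfox3 and Mbnl2 were higher, and Ptbp1 was lower, by 7.26-fold. Among the 17531 genes tested, 26.8% were called, with 10.5% of all tested higher in SGNs and 16.2% lower. Over the members the median log2 fold change was 1.80, beside 0.02 over all genes tested.

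Against glia, 5 members were called higher and 1 lower in SGNs, and the set was not the same. Srrm4 joined Nova1, Nova2, Rbfox1 and Rbfox3 on the higher side, Mbnl2 was not called, and Ptbp1 was again lower, by 5.67-fold. The background here was 24.7% of genes called, 14.3% higher and 10.4% lower. The members' median log2 fold change was 2.45, beside 0.22 over all genes tested. Both comparisons use the same SGN libraries.

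**Figure D2:**
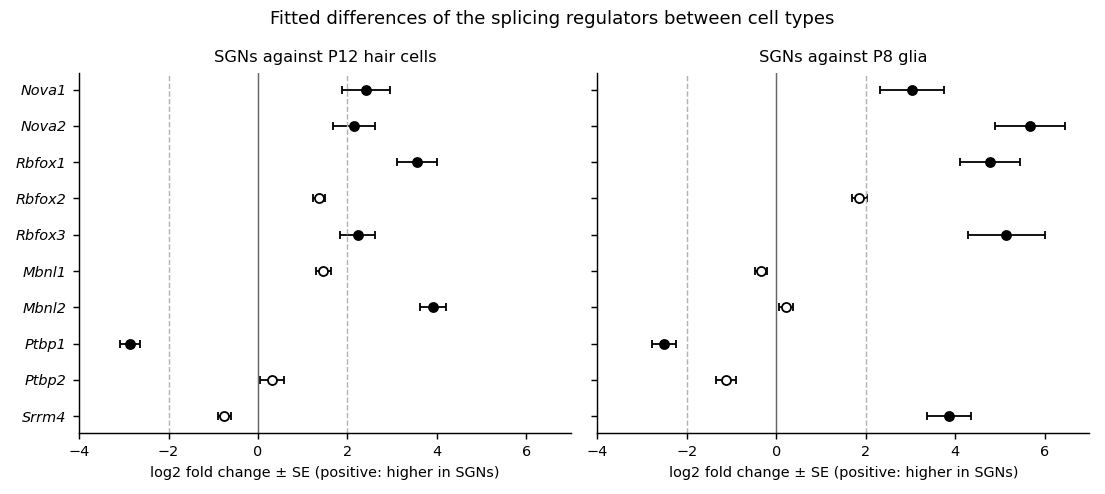
Fitted log2 fold changes (horizontal axis, ± SE) of the 10 members between the mean of the SGN ages and P12 hair cells (left) or P8 glia (right). Filled points were called, open points were not, and dashed lines mark a 4-fold difference. Ptbp1 lies on the left in both panels, at -2.86 and -2.50, while Srrm4 lies at -0.76 against hair cells and at 3.86 against glia.

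Rbfox1, a brain- and muscle-enriched splicing factor, showed one of the widest gaps. In normalised RPKM its libraries read 19.8, 23.5 and 12.1 at E15.5, 36.3, 45.0 and 35.9 at P1, 31.0, 32.9 and 33.4 in P8 SGNs, 35.5, 43.9 and 25.7 at P14, and 43.4, 30.2 and 23.7 at P30. The HC libraries read 2.37, 2.31 and 2.96, and the glia libraries 1.87, 1.94 and 0.281. Every SGN library was above every HC and glia library, and HCs and glia did not overlap either. SGNs differed by a log2 fold change of 3.56 ± 0.45 (SE) from HCs (11.8-fold, adjusted p = 8.77e-07) and 4.77 ± 0.67 from glia (27.3-fold, adjusted p = 6.26e-06).

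Rbfox3, whose product is the neuronal nuclear antigen NeuN, ran from 11.9 to 25.9 normalised RPKM over the 15 SGN libraries with a median of 19.0. The HC libraries read 4.08, 3.71 and 4.45. Glia read 3.85 in replicate 1 but 0.241 and 0.0834 in the other two, so that the glia with the most SGN marker RNA overlapped HCs and the others did not. Against HCs the log2 fold change was 2.23 ± 0.38 (adjusted p = 5.01e-05), and against glia 5.15 ± 0.86 (adjusted p = 4.70e-05), or 6.99 without glia replicate 1.

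Rbfox2, the family member used most widely outside neurons, was the most abundant of the 3 in every group. SGN libraries lay between 52.9 and 87.0 normalised RPKM with a median of 62.8. The HC libraries read 23.7, 24.4 and 26.7 and the glia libraries 16.7, 17.5 and 19.3. On this scale the 3 cell types did not overlap, whereas on TPM the HC libraries (80.9 to 99.7) lay inside the SGN range (51.4 to 157). The folds of 2.56 against HCs and 3.63 against glia stayed under 4 and were not called (adjusted p = 3.33e-08 and 1.85e-08). Rbfox2 made up 79.0% ± 1.05 (SD, n = 3) of the summed Rbfox level in HCs and 87.2% ± 11.9 in glia, against 48.5% ± 2.50 in P1 SGNs and 66.9% ± 11.8 in E15.5 SGNs. The summed level of the 3 genes was 105 to 123 in SGN groups, 31.6 in HCs and 20.6 in glia.

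Nova1 and Nova2 encode the NOVA proteins, first described as neuronal antigens of an autoimmune movement disorder. Nova1 read 2.30, 3.17 and 2.06 normalised RPKM at E15.5, 5.49, 6.86 and 6.43 at P1, 6.30, 7.70 and 6.42 in P8 SGNs, 4.39, 7.15 and 2.80 at P14, and 4.22, 3.74 and 4.89 at P30. HCs read 0.631, 1.22 and 0.775, and glia 1.92, 1.10 and 0.0444. All SGN libraries lay above all others, and HCs and glia overlapped. The log2 fold change was 2.41 ± 0.54 against HCs (adjusted p = 7.57e-04) and 3.04 ± 0.72 against glia (adjusted p = 0.00149). Without glia replicate 3, which held 4 Nova1 reads, the latter was 1.59 and under 4-fold. It was 4.25 without glia replicate 1 and 3.49 without glia replicate 2.

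Nova2 read 3.61, 6.32 and 3.36 normalised RPKM at E15.5, 3.29, 1.91 and 4.31 at P1, 1.93, 2.19 and 1.68 in P8 SGNs, 3.05, 3.85 and 2.89 at P14, and 2.83, 3.30 and 2.93 at P30. HCs read 0.815, 0.972 and 0.414. Glia held 38, 2 and 2 Nova2 counts, or 0.235, 0.0209 and 0.0232 normalised RPKM. SGNs, HCs and glia were ranked in that order without overlap. In SGNs the log2 fold change was 2.14 ± 0.47 against HCs (adjusted p = 6.09e-04), and it fell under 4-fold, to 1.75, without HC replicate 3. Against glia it was 5.67 ± 0.79 (adjusted p = 5.85e-06). This difference was 6.78 without glia replicate 1, which held 38 of the 42 glia counts and the most SGN marker RNA among glia. Without glia replicate 2 or 3 it was 5.10 and 5.18. From the sum of 42 glia counts, the mean SGN level was 25.8 times that of glia, with a 95% Poisson interval of 19.1 to 35.9 that covers counting error only. The interval takes the counts as independent, whereas each of these glia counts was even, and it may be too narrow. The fitted difference, 51.0-fold, lies above it. In the annotation, 31.7% of the exonic bases of Nova2 lie opposite the antisense gene Gm26821, which had no counts in any library.

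Srrm4 was far lower in glia than in SGNs and HCs, while its distance between SGNs and HCs depended on the scale. It read 22.8, 22.6 and 24.7 normalised RPKM at E15.5, 19.5, 23.4 and 18.1 at P1, 11.01, 11.3 and 11.3 in P8 SGNs, 8.62, 12.6 and 10.5 at P14, and 9.44, 8.90 and 6.54 at P30. HCs read 23.97, 25.1 and 20.1, and glia 2.47, 0.585 and 0.369. On this scale HCs overlapped the E15.5 and P1 SGNs and lay above every SGN library from P8 on. On TPM, the HC libraries (75.3 to 91.1) lay above all SGN libraries (5.76 to 45.2), and the difference of SGNs from HCs was -2.05 on the log2 scale. Over all ages SGNs were lower than HCs by 1.69-fold (adjusted p = 2.40e-04), under the fold of a call. The distance was 2.21-fold between P14 SGNs and P12 HCs (adjusted p = 2.65e-04). Against glia, Srrm4 was 14.5-fold higher in SGNs (log2 3.86 ± 0.49, adjusted p = 1.70e-06) and 24.4-fold higher in HCs (log2 4.61 ± 0.50, adjusted p = 5.01e-07). Without glia replicate 1 the SGN difference was 4.85.

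Ptbp1 was the member with the reverse order. Its libraries read 15.9, 28.2 and 14.7 normalised RPKM at E15.5, 23.1, 14.9 and 8.94 at P1, 18.8, 8.51 and 10.8 in P8 SGNs, 19.97, 5.81 and 5.15 at P14, and 8.19, 4.41 and 5.10 at P30. HCs read 74.8, 78.4 and 92.5, and glia 74.9, 50.2 and 66.1. The highest SGN library was well below the lowest glia library, and HCs and glia overlapped. For SGNs the log2 fold change was -2.86 ± 0.23 against HCs (adjusted p = 1.14e-09) and -2.50 ± 0.27 against glia (adjusted p = 1.47e-07). Between HCs and glia the log2 fold change was 0.36 ± 0.28 (adjusted p = 0.312).

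Within SGNs, Ptbp1 was set beside lists of markers of other cells. At each of the 5 ages, the library with the most Ptbp1 was also the one with the highest summed level of 5 connective tissue markers (collagen genes and others). That library was replicate 2 at E15.5 and replicate 1 at the later ages. The marker sum was 25.6, 80.1, 113, 32.6 and 17.8 normalised RPKM in those libraries from E15.5 to P30, and 0.174 to 18.4 in the remaining SGN libraries, of which some had up to 2 of the 5 markers at 0. The same match with the highest Ptbp1 library held at 3 of the 5 ages for the HC list and at 3 for the glia list. For markers of myelinating Schwann cells it held at 4. The endothelium list (3 genes) matched at all 5 ages, at 0.916, 35.1, 6.66, 2.35 and 1.13 in the highest Ptbp1 libraries from E15.5 to P30. Macrophage markers matched at every age but E15.5, and red blood cell markers at P1, P8 and P30 only. In P14 replicate 1, the summed HC markers (49.6) and glia markers (33.8) were the highest among SGN libraries. The part of these cells in the Ptbp1 level was not tested. Without P14 replicate 1, the log2 fold change against HCs was -3.05. In addition, 20.7% of the exonic bases of Ptbp1 are shared with genes on the opposite strand, which are Plppr3, E130317F20Rik and Gm17134. The share of each was not separated. E130317F20Rik read 0.108 to 3.24 over all libraries, and Gm17134 had no counts. Plppr3 read 21.7 to 36.4 at E15.5, 1.30 to 3.86 at P30, 12.9 to 20.3 in HCs and 4.24 to 19.2 in glia, and the use of strand in counting is not given in the sources used here.

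Ptbp2 read 19.4, 17.4 and 14.3 normalised RPKM at E15.5, 9.97, 11.5 and 13.1 at P1, 8.61, 8.66 and 10.1 in P8 SGNs, 5.80, 7.34 and 7.88 at P14, and 7.12, 7.71 and 7.86 at P30. HCs read 7.25, 7.73 and 8.42, within the range of the P14 to P30 SGNs or just above it. Glia read 17.5, 13.2 and 46.9. Glia had the highest mean and overlapped E15.5 SGNs. The log2 fold change was 0.32 ± 0.26 against HCs (adjusted p = 0.323) and -1.12 ± 0.22 against glia (adjusted p = 3.39e-04, not called at 4-fold). Without glia replicate 3 the latter was -0.64.

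Mbnl2 and Mbnl1 encode muscleblind-like proteins, the first of which is the main one in brain. Mbnl2 read 51.8, 42.6 and 47.6 normalised RPKM at E15.5, 35.2, 58.2 and 44.0 at P1, 83.1, 103 and 103 in P8 SGNs, 120, 155 and 124 at P14, and 139, 136 and 142 at P30. HCs read 7.80, 5.15 and 4.27, far below every other library, and glia read 76.3, 64.4 and 67.8, between the P1 and the P8 SGNs. Mbnl2 differed by a log2 fold change of 3.92 ± 0.28 against HCs (15.1-fold, adjusted p = 2.55e-10) and 0.22 ± 0.15 against glia (adjusted p = 0.240). Per-length levels of Mbnl2 rest on a deposited gene length of 4552 bases, whereas release M21 of the annotation gives 11993. Its level relative to other genes is therefore uncertain. The length itself cancels between groups, but whether the use of exonic bases outside it differed between groups was not tested.

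Mbnl1 read 7.68, 7.20 and 6.65 normalised RPKM at E15.5, 5.98, 6.68 and 6.76 at P1, 11.5, 12.8 and 10.8 in P8 SGNs, 17.4, 20.7 and 16.3 at P14, and 21.6, 23.4 and 23.3 at P30. HCs read 4.90, 4.37 and 3.69, below all SGN libraries, and glia read 12.7, 14.1 and 19.8, overlapping P8 and P14 SGNs. SGNs were 2.76-fold above HCs over all ages (adjusted p = 2.25e-07, under the fold of a call). The log2 fold change against glia was -0.34 ± 0.13 (adjusted p = 0.0367).

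At the nearest ages, between P14 SGNs and P12 HCs, 7 members were called, 6 higher in SGNs and Ptbp1 lower. The background was 23.1% called, 10.9% higher and 12.2% lower. Mbnl1 was the additional call, at a log2 fold change of 2.09 ± 0.19 (4.26-fold, adjusted p = 3.32e-08), and it fell just under 4-fold without P14 replicate 2 (1.94) or without HC replicate 3 (1.99), and with DESeq2 size factors (1.88). The Nova1 call was lost without P14 replicate 2 (adjusted p = 0.0164), HC replicate 1 (adjusted p = 0.0125) or HC replicate 3 (adjusted p = 0.0175), all by limma-voom. That of Nova2 was lost without HC replicate 3 (log2 fold change 1.87) and in DESeq2 (1.94), and that of Rbfox3 in edgeR (adjusted p = 0.0206). With library size as the only scaling, Rbfox1, Mbnl2 and Ptbp1 were called and Nova1, Nova2, Rbfox3 and Mbnl1 were not. Between P8 SGNs and P8 glia, 6 members were called, 5 higher and Ptbp1 lower, with a background of 20.9% called, 13.4% higher and 7.53% lower. These were Nova1, Nova2, Rbfox1, Rbfox3 and Srrm4 on the higher side, at 11.98- to 42.7-fold.

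Between the other two cell types, Srrm4 and Nova2 were higher in HCs than in glia and Mbnl2 was lower. Of all genes, 24.4% were called, 16.2% higher in HCs and 8.18% lower. Nova2 was 11.6-fold higher in HCs (adjusted p = 0.00335), and the call was lost without HC replicate 2 (adjusted p = 0.0138), glia replicate 2 (adjusted p = 0.0309) or glia replicate 3 (adjusted p = 0.0298). Mbnl2 had a log2 fold change of -3.70 ± 0.31 (13.0-fold lower in HCs, adjusted p = 1.94e-08). Rbfox3 was 7.56-fold higher in HCs with an adjusted p of 0.0145, and 4.76 on the log2 scale without glia replicate 1 (adjusted p = 0.00233). The scale matters most for HCs. On TPM, the log2 difference of SGNs from HCs was shifted by a median of -1.30 over the members, and the sign of the uncalled Ptbp2 difference turned from 0.32 to -0.95. On that scale Nova1, Nova2, Rbfox2, Mbnl1 and Ptbp2 overlapped between SGNs and HCs. The log2 differences of Nova1 (1.12), Nova2 (0.80) and Rbfox3 (0.93) were then under the 4-fold of a call, while those of Rbfox1 (2.26), Mbnl2 (2.59) and Ptbp1 (-4.18) were over it. Between HCs and glia the shift was 1.63, and Ptbp2 turned from -1.43 (adjusted p = 9.68e-04) to 0.16.

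With age, the SGN regulators divided into those that rose, those that fell and those with no call. From E15.5 to P30, Mbnl1 and Mbnl2 rose and Ptbp1, Ptbp2 and Srrm4 fell, 5 of the 10, where 34.6% of the 15113 genes tested were called, 18.4% higher at P30 and 16.2% lower. The members' share was thus not far from the background. Their median log2 fold change was 0.09, beside -0.01 over all genes.

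**Figure D3:**
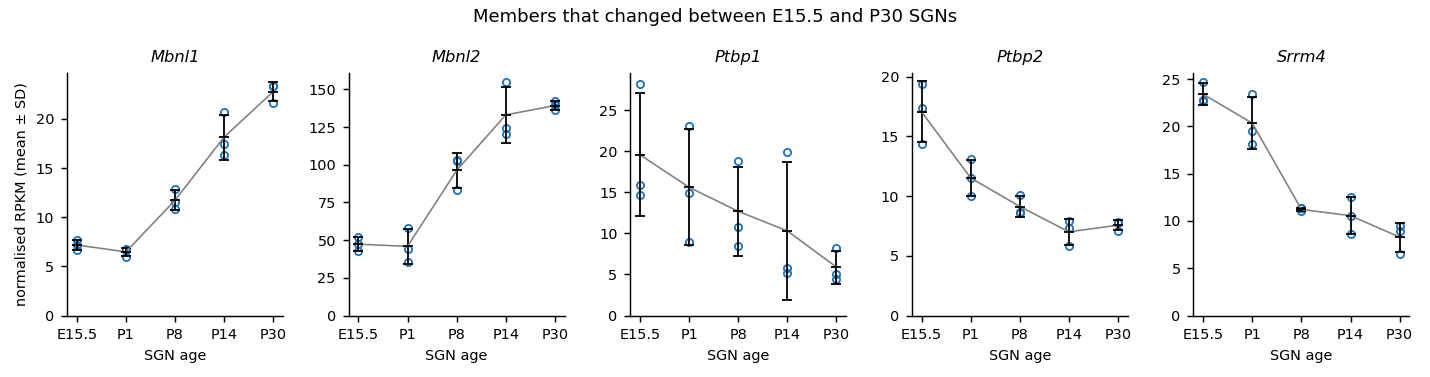
Normalised RPKM (vertical linear axis from 0) against SGN age for the 5 members called between E15.5 and P30. Open circles are libraries, bars are the mean ± SD of 3, and the line joins the means. Mbnl1 and Mbnl2 climb from P1 to P30, Ptbp2 and Srrm4 fall by P8, and Ptbp1 shows 1 library far above the other two at P14.

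Mbnl1 rose from 7.18 ± 0.519 (SD, n = 3) at E15.5 to 22.8 ± 0.985 at P30 in normalised RPKM, and Mbnl2 from 47.3 ± 4.57 to 139 ± 3.00. The log2 fold changes were 1.64 ± 0.14 (SE, adjusted p = 2.60e-07) and 1.54 ± 0.17 (adjusted p = 3.97e-06). The 2 genes moved in parallel, as the share of Mbnl2 in their sum stayed between 85.9% and 89.1% in the group means. For both, libraries of E15.5 and P1 overlapped and all later libraries lay above them. For Mbnl1 the P8, P14 and P30 libraries were ranked without overlap, whereas for Mbnl2 P14 and P30 overlapped.

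Srrm4 fell from 23.4 ± 1.14 to 8.29 ± 1.54 normalised RPKM, Ptbp2 from 17.0 ± 2.55 to 7.56 ± 0.393, and Ptbp1 from 19.6 ± 7.49 to 5.90 ± 2.01. The log2 fold changes were -1.53 ± 0.19 (adjusted p = 8.66e-06), -1.19 ± 0.18 (adjusted p = 8.89e-05) and -1.70 ± 0.52 (adjusted p = 0.0163). The Srrm4 and Ptbp2 groups did not overlap between these ages. The Ptbp1 call was lost when E15.5 replicate 2 (log2 fold change -1.40, adjusted p = 0.0616), P30 replicate 2 (adjusted p = 0.0529) or P30 replicate 3 (adjusted p = 0.0514) was left out, and neighbouring ages overlapped throughout.

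By interval, the calls fell in the first 2 of the 4. From E15.5 to P1, Nova1 rose by 1.32 ± 0.31 on the log2 scale (adjusted p = 0.0130) and Rbfox1 by 1.13 ± 0.27 (adjusted p = 0.0133), with 8.26% of genes called, 5.08% higher and 3.18% lower. Both calls were lost without E15.5 replicate 3 (adjusted p = 0.0525 and 0.0683), and that of Rbfox1 also without P1 replicate 2 (adjusted p = 0.0605). From P1 to P8, Mbnl2 rose by 1.11 ± 0.17 (adjusted p = 4.27e-04), with 7.44% of genes called, 4.29% higher and 3.15% lower. Without P1 replicate 1 it rose by 0.91 and was under 2-fold. With library size as the only scaling, which shifted the median of all genes by -0.22, Mbnl2 was at 0.89 and not called, and Srrm4 was called lower instead (-1.07, adjusted p = 6.69e-04). In the reported fit of this interval Mbnl1 (log2 fold change 0.87, adjusted p = 8.78e-04) and Srrm4 (-0.85, adjusted p = 0.00353) did not reach 2-fold. Markers of myelinating Schwann cells (5 genes, none at 0 in P1, P8 or P14 SGNs) rose over the same days, from a sum of 35.8 to 122 normalised RPKM in P1 SGNs to 627 to 1042 in P8 SGNs, beside 6034 to 8400 in glia. Glia held more Mbnl1 and Mbnl2 than any P1 SGN library. The marker sum was 106 to 402 at P14 and 7.91 to 185 at P30, ages at which both genes were above their P8 level. The part of these cells in the P1 to P8 difference was not tested.

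No member was called from P8 to P14 or from P14 to P30 by limma-voom, edgeR or DESeq2, in intervals where 0.536% and 0.0596% of genes were called. At an unadjusted p under 0.05, 4 members differed from P8 to P14 and 1 from P14 to P30. Over all 15113 genes tested, 1735 and 990 did. Mbnl1 was the nearest to a call, at a log2 fold change of 0.63 ± 0.13 from P8 to P14 (adjusted p = 0.0349, 1.55-fold).

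Nova2, Rbfox2 and Rbfox3 were not called in any interval or from E15.5 to P30. For Nova1, the highest mean was at P8 (6.81 ± 0.775) and the lowest at E15.5 (2.51 ± 0.583), and the 4 later ages overlapped from each to the next in order of level. Nova2 was highest at E15.5 (4.43 ± 1.64) and lowest at P8 (1.93 ± 0.255), where it did not overlap P30, the next in order. For Rbfox1, the ages from P1 on overlapped and E15.5 (18.5 ± 5.78) lay below them. For Rbfox2 and Rbfox3 each age overlapped the next in order of level, from 55.5 ± 3.33 (P1) to 72.6 ± 4.99 (P30) and from 16.02 ± 6.50 (E15.5) to 23.4 ± 4.27 (P8).

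Ratios between related genes within a library cancel the library scaling as long as both levels are well above the pseudocount. The levels of Nova1, Nova2 and Rbfox3 were not so in every glia library. The ratios were compared by exact two-sided permutation tests of 15 SGN libraries against 3, with p adjusted over the 8 tests. These tests took the SGN libraries as exchangeable and ignored their ages, although the Nova2 to Nova1 ratio varied among ages. The p-values therefore do not allow for differences between ages. The smallest p possible was 0.00245 before adjustment. It is higher when 1 of the 3 HC or glia libraries is left out, so an adjusted p can then rise with the difference unchanged. Log2 ratios used TPM + 0.1, and a pseudocount of 1 TPM was the alternative.

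**Figure D4:**
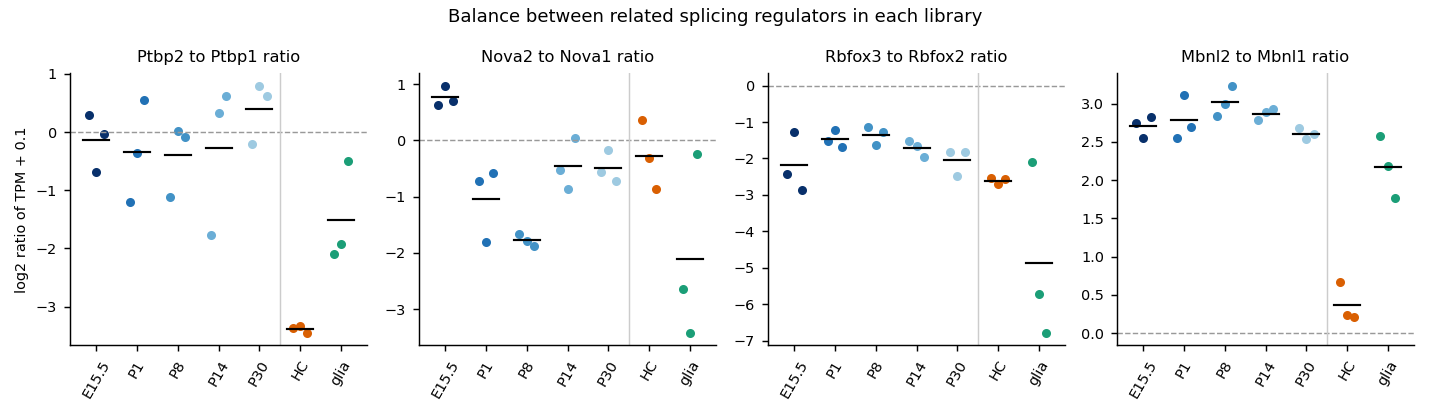
Log2 ratio of TPM + 0.1 (vertical axis, a separate scale in each panel) between related splicing regulators in every library, grouped as in the plot of levels, with black lines at group means and a dashed line at equal levels. Ptbp2 to Ptbp1 lies between -1.78 and 0.80 in SGNs and at -3.38 on average in hair cells (HC), and Mbnl2 to Mbnl1 is lowest in hair cells.

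The Ptbp2 to Ptbp1 ratio was -0.15 ± 0.76 (SD, n = 15) in SGNs, -3.38 ± 0.06 (n = 3) in HCs and -1.50 ± 0.88 (n = 3) in glia. SGNs and HCs did not overlap, and the difference of 3.23 had an adjusted p of 0.00980 (exact permutation test). SGNs and glia overlapped at P14 replicate 1 (-1.78) and others, and the difference was 1.35 (adjusted p = 0.0327, exact permutation test). It was 1.06 without glia replicate 1 and 1.14 without glia replicate 2 (adjusted p = 0.157 and 0.137, exact permutation tests). In the P30 group the mean was 0.40 ± 0.53, the highest of the 5 ages, but the ages overlapped. As shares of the summed level, Ptbp2 took 56.9% ± 9.14 at P30 and 8.72% ± 0.331 in HCs.

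The Mbnl2 to Mbnl1 ratio was 2.80 ± 0.21 in SGNs, 0.37 ± 0.26 in HCs and 2.18 ± 0.40 in glia. The difference was 2.43 against HCs, with no overlap, and 0.62 against glia, with overlap (adjusted p = 0.00980 and 0.0196, exact permutation tests). Without glia replicate 2 or 3 the latter was 0.63 and 0.42 (adjusted p = 0.0941 and 0.0672, exact permutation tests). The Rbfox3 to Rbfox2 ratio was -1.75 ± 0.50 in SGNs, -2.61 ± 0.09 in HCs and -4.87 ± 2.47 in glia. It was higher in SGNs by 0.85 and 3.12 (adjusted p = 0.0327 and 0.0196, exact permutation tests), and it overlapped both groups. Against HCs, the difference was 0.80 to 0.89 when any of the 3 HC libraries was left out. The adjusted p was then 0.0672 to 0.0840 (exact permutation tests), with the higher smallest p of such tests. Against glia, the difference was 1.70 with a pseudocount of 1 TPM (adjusted p = 0.0245, exact permutation test) and glia replicates 2 and 3 held 0.268 and 0.0912 TPM of Rbfox3. It was 2.69 without glia replicate 2 and 2.16 without glia replicate 3 (adjusted p = 0.0941 and 0.0672, exact permutation tests).

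The Nova2 to Nova1 ratio varied more among SGN ages than between SGNs and HCs. It was 0.77 ± 0.18 at E15.5, -1.04 ± 0.67 at P1, -1.78 ± 0.11 in P8 SGNs, -0.45 ± 0.46 at P14 and -0.49 ± 0.28 at P30. Nova2 was the more abundant of the pair in all 3 E15.5 libraries, at 63.2% ± 2.98 of their sum, and took 22.1% ± 1.40 at P8. Against HCs (-0.27 ± 0.61) the difference of SGNs was -0.32 (adjusted p = 0.598, exact permutation test), and against glia (-2.11 ± 1.66) it was 1.51 (adjusted p = 0.0532, exact permutation test). With a pseudocount of 1 TPM the latter shrank to 0.33 (adjusted p = 0.551, exact permutation test). Glia held 4 to 324 Nova1 and 2 to 38 Nova2 counts, and the difference was 2.44 without glia replicate 3 (adjusted p = 0.0294, exact permutation test) and 0.85 without glia replicate 2. Leaving out P1 replicate 2, P8 replicate 2 or P8 replicate 3 of the SGNs also brought the adjusted p under 0.05, to 0.0437 to 0.0471 (exact permutation tests).

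Genes whose pattern was closest to each member were sought by Pearson's r of log2(TPM + 1) over the 21 libraries, among 11460 genes. The points share cell type and age groups, so r is a description. Among the genes closest to Srrm4 were Clrn1, which is mutated in Usher syndrome (r = 0.978), and Casz1, a zinc-finger transcription factor (0.972). Ptbp1 was closest to Rcn1 (0.974), Gpd2 (0.969) and Reep3 (0.968), and Rbfox1 to the microtubule protein gene Map1b (0.972), Camta1 (0.964) and Lonrf2 (0.964). For these 3 members the list was the same on the scale of normalised RPKM, and over all members 16 of 30 names were shared between the scales. The remaining closest genes were Abr, C1ql3 and Psd3 for Nova1, Pde4dip, Tvp23a and Cd24a for Nova2, Vps13c, Cdh2 and Nme1 for Rbfox2, and Disp2, Bex2 and D430041D05Rik for Rbfox3. They were Dst, Pacsin2 and Ublcp1 for Mbnl1, Adam23, Abcg4 and Luzp1 for Mbnl2, and, among others, Morc2a and Zfp326 for Ptbp2. The r of those named lay between 0.879 (Ublcp1) and 0.970 (Vps13c).

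Other splicing regulators were taken from 4 lists. Of 27 tissue-restricted regulators, 25 were tested between cell types. Against HCs, 5 were higher in SGNs and 3 lower (32% called, beside 26.8% of all genes), led by the neuronal ELAV-like genes Elavl2 (log2 fold change 9.36 ± 0.98), Elavl4 (8.41 ± 0.91) and Elavl3 (7.97 ± 0.99). Elavl2 held only 2 to 12 counts in HC libraries. The 3 that were lower in SGNs, named after their values were seen, were Rbm24, Esrp1 and Rbm47. Rbm24, known as a splicing factor of muscle and hair cells, read 140 ± 15.7 normalised RPKM in HCs and 0.269 to 11.1 in SGN libraries. Against glia, 9 were higher and 3 lower (48% called, beside 24.7% of all genes), led by Elavl2 (5.86 ± 0.77), Khdrbs2 (5.84 ± 1.13) and Celf6 (5.53 ± 0.96). Celf6 had 0 counts in every glia library and Khdrbs2 had 0 to 36, so the size of these 2 folds is uncertain. The mean Celf6 level over SGN libraries was 0.782 normalised RPKM. The 3 lower, named likewise, were Qk, Celf2 and Rbpms. Qk, a regulator of myelin transcripts, read 215 ± 8.89 in glia and 3.17 to 22.0 in SGNs.

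From E15.5 to P30, 4 of the 22 tissue-restricted regulators tested rose and 8 fell, or 54.5% called, beside 34.6% of all genes. The largest changes were those of Celf3 (log2 fold change -4.78 ± 0.35), Celf5 (-4.49 ± 0.60) and Rbm20 (4.37 ± 1.05). The median log2 fold change was -0.49, beside -0.01 over all genes. Of 21 hnRNP genes, 1 rose and 8 fell (42.9% called), led by Hnrnpl (-1.61 ± 0.22), Hnrnpab (-1.32 ± 0.25) and Hnrnpm (-1.30 ± 0.23), and of 13 genes of the SR protein list, 3 fell (23.1% called, less than the share over all genes), namely Srsf12 (-2.50 ± 0.42), Srsf3 (-1.20 ± 0.16) and Srsf6 (-1.03 ± 0.17). With library size as the only scaling, 16 hnRNP genes and 9 SR genes were called, as this scaling shifted the median of all genes by -0.48. Between SGNs and the other cell types, these basal factors gave 1 call: Srsf12 was higher in SGNs than in HCs (3.63 ± 0.90). Between HCs and glia, Hnrnpab was called lower in HCs. For hnRNPs in SGNs there were 0 calls against HCs and glia by limma-voom and edgeR, and DESeq2 called 1 against glia. By limma-voom, 10 of 21 against HCs and 17 against glia had an unadjusted p under 0.05. Over all 17531 genes tested, 10201 and 9632 did. For SR genes there were 0 calls against glia by any of these tools, with 10 of 13 at an unadjusted p under 0.05 by limma-voom. The median log2 fold change of SGNs against glia was -0.84 for hnRNPs and -0.97 for SR genes, beside 0.22 over all genes. Against HCs the medians were 0.05 and -0.30, beside 0.02.

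REST represses neuronal genes in non-neuronal cells together with corepressors, and Srrm4 is known to act on its transcript. Of 7 genes of this complex, Rest was lower in SGNs than in HCs (log2 fold change -2.36 ± 0.33, adjusted p = 3.28e-06) and than in glia (-3.44 ± 0.31, adjusted p = 1.22e-08), and Rcor2 was higher (2.60 ± 0.69 and 5.15 ± 0.94). Rest read 1.04 to 5.49 normalised RPKM in SGN libraries, 12.3 to 15.3 in HCs and 33.3 ± 21.6 (SD, n = 3) in glia. HCs thus held high Srrm4 together with gene-level Rest counts above those of every SGN library. From E15.5 to P30, Hdac1 (-1.89 ± 0.33) and Rest (-1.73 ± 0.54, adjusted p = 0.0176) fell. Splice forms of Rest were not measured here.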

How the data were processed

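Per the labels and the study's methods, reads were aligned with STAR 2.4.0i to mm10 and counted per gene with featureCounts on GENCODE vM15, after amplification with the Ovation RNA-Seq V2 kit. The authors deposited raw counts and TPM for 21 libraries. Even numbers made up 67.9% (median over libraries) of the counts from 1 to 20. The 10 members and the other gene lists were chosen with earlier results of these data known. Genes above 1 CPM in all 3 replicates of at least 1 group were fitted with limma-voom (limma 3.58.1, edgeR 4.0.16 for TMM, R 4.3.3), with Benjamini-Hochberg adjustment over all genes tested: 17531 genes in 21 libraries for cell types, 15113 in the 15 SGN libraries for ages. Thresholds follow the study (4-fold and 0.01, 2-fold and 0.05). The fit was tested on simulated data. RPKM on TMM-scaled library sizes replaced TPM for levels after the data were seen. Ratios used TPM with a pseudocount of 0.1 and exact permutation tests (SciPy 1.17.1). Symbols, positions and sequences come from GENCODE M21 (GRCm38), and 147 identifiers without a symbol there were kept in the fits. A count of 0 allows up to 3 counts, or 0.0805 to 0.289 CPM per library. The intervals and this floor cover counting error only. Alternatives were another scaling, no filter, edgeR, DESeq2 1.42.0, quality weights, a replicate block, other thresholds, a pseudocount of 1 TPM and each library left out. From each other list, the 3 called genes with the largest change were named per comparison, and for each member the 3 genes with the highest r. Some of the genes that the closest-pattern rule names are not reported here.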

Additional observations from a re-analysis of the deposited data

How the results depend on the processing

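Of the 36 calls made for members, 17 held under every alternative with a test and 19 were lost under at least 1, and no called difference changed sign. With library size as the only scaling, which shifted the median of all genes by -0.55 between SGNs and HCs, 3 members were called against HCs over all ages, 3 at P14 and 1 from E15.5 to P1, and from P1 to P8 Srrm4 was called in place of Mbnl2. DESeq2 called 4 at P14 against HCs, and gave no adjusted p for Rbfox3 between cell types. Quality weights called 0 from E15.5 to P1, and a fit of those 2 groups alone called 1. With 2-fold and 0.05, 6 were called between HCs and glia. With 4-fold and 0.01, 0 were called from E15.5 to P1, P1 to P8 and E15.5 to P30. With each library left out in turn, members called were 4 to 7 for P14 SGNs against HCs, 0 to 2 from E15.5 to P1, 0 to 1 from P1 to P8, 5 to 6 for both comparisons over all ages, 2 to 4 for HCs against glia and 4 to 5 from E15.5 to P30.

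With a pseudocount of 1 TPM in place of 0.1, the Nova2 to Nova1 difference from glia was 0.33 and that of Rbfox3 to Rbfox2 1.70, while the other ratio differences moved by less than 1.5 times. Ratios left without 1 library ranged from 0.85 to 2.44 for Nova2 to Nova1 against glia, 0.80 to 0.93 for Rbfox3 to Rbfox2 against HCs, 2.16 to 4.51 for it against glia, 1.06 to 1.86 for Ptbp2 to Ptbp1 against glia, and 0.42 to 0.82 for Mbnl2 to Mbnl1 against glia, with adjusted p crossing 0.05 in each. With P8 SGNs alone, the Nova2 to Nova1 difference from glia was 0.33 and that of Mbnl2 to Mbnl1 0.85. The smallest possible p is higher when an HC or glia library is left out. The cause of the changes in the differences was not tested.

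Counts over all genes moved by more than 1.5 times as follows. With quality weights, 2017 genes were called for SGNs against glia (4326 in the reported fit), 1942 at P8 (3662), 2226 for HCs against glia (4272), 552 from E15.5 to P1 (1248), 174 from P8 to P14 (81) and 110 from P14 to P30 (9). Other thresholds gave 8041, 7588, 7198, 6943 and 7351 for the cell types, and 190, 205, 2, 1 and 1973 for the ages. From P8 to P14, DESeq2 called 219 and edgeR 34. From P14 to P30, DESeq2 called 97, no filter 15 and the 2 groups alone 2. From E15.5 to P1 the 2 groups alone gave 576, and from P1 to P8 edgeR gave 649.

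Replicate numbers are shared between groups, but same-numbered libraries did not deviate together in every pair (r from -0.14 to 0.38 among SGN ages), so they were not treated as pairs. Pairs with E15.5 ran from -0.14 to 0.05. Those among P1, P8, P14 and P30 were all positive, and for replicate 1 they ran from 0.25 to 0.38. With the replicate block, 6, 6, 7, 6, 3, 2, 1, 0, 0 and 5 members were called over the 10 comparisons, as without it, while genes called rose from 81 to 146 from P8 to P14 and from 9 to 23 from P14 to P30.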
